A study of Mus musculus with 10 samples.

Results

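Cultures driven toward the Th2 state were compared with unpolarised Th0 cultures, on 6 of the 10 arrays of the series: those titled Th2 (n = 3) and those titled Th0 (n = 3). The cells were CD4+ lymphocytes from the spleens of wild-type female Balb/c mice, 10 to 14 weeks old. Every culture was activated through CD3, a part of the antigen receptor complex, and the costimulatory receptor CD28, with anti-CD3 at 4 µg/ml and anti-CD28 at 30 ng/ml. Th2 cultures additionally got IL-4 at 100 ng/ml together with anti-IFNγ at 10 µg/ml, whereas Th0 cultures got neither. In any Th2 against Th0 value the cytokine and the anti-IFNγ antibody therefore cannot be told apart. The other 4 arrays held Th17 cultures, which had the same stimulation and the same anti-IFNγ dose with IL-6 (20 ng/ml), TGFβ (5 ng/ml) and IL-23 (10 ng/ml). They entered the fit as a group of their own. The medium was renewed at 72 h, and when the cells were harvested is not stated in the labels. The labels describe the replicates as biological without saying whether separate animals were used, so a p-value reflects only how far these samples spread, which may be technical. Of 22180 genes measured, those described below either had higher or lower values on all 3 Th2 arrays than on all 3 Th0 arrays, or belong to 21 gene lists that cover IL-4 signalling, helper cell programmes and cell type markers. The lists hold 382 genes, of which 37 were not analysed here.

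IL-4 binds a receptor built around IL4Rα, whose kinases phosphorylate the transcription factor STAT6. In T helper cells STAT6 is known to raise GATA3, the factor that opens the Il4, Il5 and Il13 loci, and to restrain the Th1 programme that IL-12 and IFNγ drive through STAT4 and T-bet. IL-4 signalling is also known to raise its own receptor chain and inhibitors such as SOCS1 and CISH.

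STAT6 favours a palindrome in which the arms TTC and GAA enclose 4 bases of any kind (the longer motif), while other STAT factors favour the same arms around 3 bases, TTCNNNGAA (the shorter motif). Both read the same on both strands, an arm can belong to both, and each was searched for in RefSeq promoters of GRCm38.p6, from 250 bases before to 50 after a gene's start. Promoters are printed for 4 genes, chosen from those described below because their window holds a match: Cish, an IL-4-induced inhibitor of cytokine signalling; Il4 itself, at the more distal of its annotated starts; Il9, a Th2-associated cytokine that was higher on every Th2 array; and Il12rb2, the IL-12 receptor chain with the widest separation between groups. Capitals mark a match to either motif.
Cish, chr9:107296409-107296708, plus strand: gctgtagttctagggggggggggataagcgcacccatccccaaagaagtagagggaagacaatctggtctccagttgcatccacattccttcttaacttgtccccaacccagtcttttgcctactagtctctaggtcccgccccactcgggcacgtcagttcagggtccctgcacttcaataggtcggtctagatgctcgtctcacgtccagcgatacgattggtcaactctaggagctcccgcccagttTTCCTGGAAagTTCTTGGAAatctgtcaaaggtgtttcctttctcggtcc
Il4, chr11:53618616-53618915, minus strand: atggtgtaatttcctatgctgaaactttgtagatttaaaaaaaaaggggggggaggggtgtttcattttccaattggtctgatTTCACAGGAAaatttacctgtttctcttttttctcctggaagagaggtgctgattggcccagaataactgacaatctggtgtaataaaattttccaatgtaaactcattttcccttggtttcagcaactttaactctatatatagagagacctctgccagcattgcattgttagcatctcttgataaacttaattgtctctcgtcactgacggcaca
Il9, chr13:56482208-56482507, minus strand: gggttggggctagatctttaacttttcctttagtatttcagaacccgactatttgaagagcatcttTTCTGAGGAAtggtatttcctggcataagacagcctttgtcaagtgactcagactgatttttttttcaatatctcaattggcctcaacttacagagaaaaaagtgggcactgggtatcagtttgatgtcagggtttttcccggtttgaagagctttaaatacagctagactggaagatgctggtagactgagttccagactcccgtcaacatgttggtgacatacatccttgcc
Il12rb2, chr6:67376139-67376438, minus strand: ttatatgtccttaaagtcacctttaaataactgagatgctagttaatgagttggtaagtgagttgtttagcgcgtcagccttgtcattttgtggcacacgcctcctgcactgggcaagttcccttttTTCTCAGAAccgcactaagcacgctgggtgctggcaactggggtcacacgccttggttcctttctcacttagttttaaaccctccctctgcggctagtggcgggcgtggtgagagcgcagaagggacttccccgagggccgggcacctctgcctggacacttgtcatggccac
The windows of Gata3, Il4ra, Socs1, Irf4 and Tnfsf11, also described below, held 0 matches to either motif, and the window at the other Il4 start held 1 match to the shorter. Some other genes described below held matches too. Among them, Il3 held 1 match to the longer motif, Socs3 held 1 to the shorter, and Bcl6 held 3 and 1 to the shorter at its 2 starts. The Il4 and Il9 windows each held 1 match to the longer motif, Il12rb2 held 1 match to the shorter and Cish held 2. Of 16990 measured genes with a promoter, 7.43% held the longer motif and 9.15% the shorter. Among 718 genes with higher values on all 3 Th2 arrays the shares were 7.66% and 9.47%, and among 664 with lower values on all 3 they were 7.68% and 9.79%, each close to the share over all promoters. For the known IL-4 and STAT6 targets of T cells, 3 of 30 promoters held the longer motif and 5 of 30 the shorter. A match is a description of letters in this window and not a binding site.

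The 3 Th2 arrays were not alike. On the first principal component, which held 35.8% of the variance, Th2 replicates 2 and 3 lay at 38.8 and 55.8 and Th2 replicate 1 at -34, while the Th0 arrays lay between -28.7 and -1. Over all genes, Th2 replicate 1 correlated with the Th0 arrays at 0.961 to 0.981 and with the other Th2 arrays at 0.95 and 0.934. Th17 replicate 4 lay beside them at 37.5 and correlated with Th2 replicates 2 and 3 at 0.96 and 0.961, so these were the 3 arrays apart on this component. Values below are therefore mostly given by array, and the calls of the main lists are also given without Th2 replicate 1. T cell markers were present throughout: at least 11 of 12 measured T cell identity genes exceeded a log2 value of 5 on every array of both groups. Cd3e stood at 9.43, 10.40 and 10.08 on the Th0 arrays and at 10.44, 9.36 and 9.59 on the Th2 arrays, and Cd4 at 7.96, 8.76 and 8.0 against 8.53, 7.23 and 7.09. Of 13 B cell markers 2 exceeded 5 on each Th0 array and 1 on each Th2 array, and of 16 myeloid markers 2 or 3 did so on each array. Cd79a, a B cell receptor chain, was at 3.99 or less and Lyz2, a myeloid lysozyme, at 3.91 or less. Ighm, the immunoglobulin mu chain, stood at 7.46, 9.68 and 6.81 on the Th0 arrays and at 8.17, 5.36 and 5.47 on the Th2 arrays, and was highest on Th0 replicate 2 and Th2 replicate 1. Basophil and mast cell markers were above 5 for 11 of 16 genes on Th0 replicate 1, against 1 to 3 genes on each of the other 5 arrays. For example, Cpa3, a mast cell and basophil protease, stood at 10.74, 3.83 and 6.86 on the Th0 arrays and at 6.20, 3.30 and 3.74 on the Th2 arrays.

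No gene differed between Th2 and Th0 cultures in the limma fit to all 10 arrays after Benjamini-Hochberg adjustment: 0 of 22180 genes (0%) had an adjusted p under 0.05, and the smallest was 0.767. At an unadjusted p under 0.05 there were 1407 genes (6.34%), of which 746 (3.36%) were higher and 661 (2.98%) lower in Th2. Counting genes whose 3 Th2 values all lay beyond all 3 Th0 values gave 1869 genes (8.43%), 994 higher (4.48%) and 875 lower (3.94%). Most of these separations were narrow. The median distance between the nearest Th2 and Th0 values was 0.08 log2 units for the higher genes and 0.07 for the lower genes. A distance over 0.5 was found for 20 genes higher (0.0902%) and 5 lower (0.0225%). Genes in the higher class were expressed more strongly, with 41.3% above a mean log2 value of 5, against 21.4% in the lower class and 27.8% of genes that overlapped.

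Without Th2 replicate 1 the same fit called 431 genes (1.94%), 177 higher (0.798%) and 254 lower (1.15%). Th2 replicate 1 lay beyond the Th0 range on the same side for 64 of the 177 and 28 of the 254. It lay on the opposite side of the Th0 range for 17 and 89 of them.

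Genes of the IL-4 receptor and its signalling chain had no common direction across the 3 Th2 arrays. Of 20 measured members 6 had a higher mean in Th2 and 14 a lower, with a median difference of -0.15 log2 units against -0.01 over all genes. Of the 20, 0 were called (0% of all genes) and 0 separated the groups (8.43% of all genes). Il4ra, the ligand-binding receptor chain, stood at 7.96, 9.32 and 8.90 on the Th0 arrays and at 9.77, 7.49 and 6.05 on the Th2 arrays. Th2 replicate 1 was thus the highest of the 6 arrays and the other Th2 arrays the lowest. The difference was -0.96 ± 0.78 (SE), with a limma adjusted p of 0.865. Stat6, the transcription factor itself, stood at 7.03, 7.04 and 6.96 in Th0 and at 7.44, 7.0 and 6.60 in Th2, a difference of 0.00 ± 0.21. Its Th0 values lay within a narrow band that the Th2 values straddled.

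Of the feedback inhibitors, Socs1 and Socs2 were likewise highest on Th2 replicate 1 and lowest on Th2 replicates 2 and 3 among the 6 arrays. Socs1, which blocks the receptor's kinases, stood at 7.49, 7.71 and 7.83 in Th0 and at 8.16, 6.56 and 5.98 in Th2, a difference of -0.77 ± 0.43. Socs2, another inhibitor of the SOCS family, stood at 5.67, 6.05 and 7.37 against 8.53, 4.37 and 3.59, a difference of -0.87 ± 1.03. For both genes Th2 replicate 1 was above every Th0 array and Th2 replicates 2 and 3 below every Th0 array. A second Socs2 probe set differed by 0.07 where the one used differed by -0.87. Cish, whose promoter is printed above, stood at 9.42, 10.13 and 9.78 against 10.11, 9.57 and 9.42, a difference of -0.07 ± 0.27 with fully overlapping groups. Socs3, an inhibitor induced mainly by STAT3, stood at 7.21, 7.76 and 6.79 against 7.14, 5.81 and 5.62, a difference of -1.07 ± 0.39 (unadjusted p 0.0196). A second Socs3 probe set differed by -0.33. Without Th2 replicate 1, Socs1 and Socs3 were called lower (10% of the 20, against 1.94% of all genes), and no other member of the chain was called.

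Among transcription factors of the Th2 programme, Irf4 and Rbpj had higher values on every Th2 array and Bhlhe40 had lower values on every Th2 array, while Gata3 did not separate the groups. These 3 are 12% of 25 measured members, against 8.43% of all genes. Of the 25, 13 had a higher mean and 12 a lower, none was called, and the median difference was 0.00. Without Th2 replicate 1, 2 of the 25 were called (8%, against 1.94% of all genes), Rel higher and Nfatc2 lower. Gata3, the lineage-defining factor, stood at 7.43, 8.14 and 7.68 in Th0 and at 8.15, 7.28 and 7.14 in Th2. Th2 replicate 1 was just above the Th0 range and the other Th2 arrays were under it. The difference was -0.23 ± 0.30 (95% interval -0.89 to 0.44, adjusted p 0.927). In the Th17 cultures Gata3 averaged 5.83 ± 0.36 (SD, n = 4), and Th2 was 1.69 higher with a limma adjusted p of 0.0769. In that contrast 17 genes (0.0766%) were called, 4 of them higher in Th2 (0.018%).

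Irf4, which cooperates with AP-1 and NFAT factors at cytokine genes, stood at 7.63, 8.87 and 9.07 in Th0 and at 9.34, 9.94 and 9.58 in Th2. All Th2 arrays were above all Th0 arrays, by 1.10 ± 0.43 in the mean. Without Th0 replicate 1, its lowest array and the one high in basophil markers, that difference was 0.65. Rbpj, the DNA-binding partner of Notch, stood at 8.80, 9.68 and 9.72 against 9.93, 9.90 and 9.79, a difference of 0.47. It was 0.17 without Th0 replicate 1. The nearest Th2 and Th0 values of Rbpj were 0.07 apart, and a second, weaker Rbpj probe set also differed by 0.07. Bhlhe40, a factor linked to cytokine production in activated T cells, stood at 7.90, 8.50 and 7.87 against 7.71, 7.77 and 7.61, a difference of -0.39.

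Maf and Nfil3 lay under the Th0 range on Th2 replicates 2 and 3 only. Maf, which binds the Il4 promoter, stood at 7.61, 8.96 and 7.07 in Th0 and at 7.25, 5.59 and 6.98 in Th2, a difference of -1.27 ± 0.52. Nfil3, a bZIP regulator of Th2 cytokines, stood at 6.35, 7.76 and 6.78 against 6.55, 5.39 and 5.71, a difference of -1.08. Gfi1, a repressor that supports Th2 cell growth, went the other way, at 5.41, 6.11 and 5.64 against 5.44, 7.07 and 6.33, a difference of 0.56. In each of these genes Th2 replicate 1 lay inside the Th0 range.

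**Figure D1:**
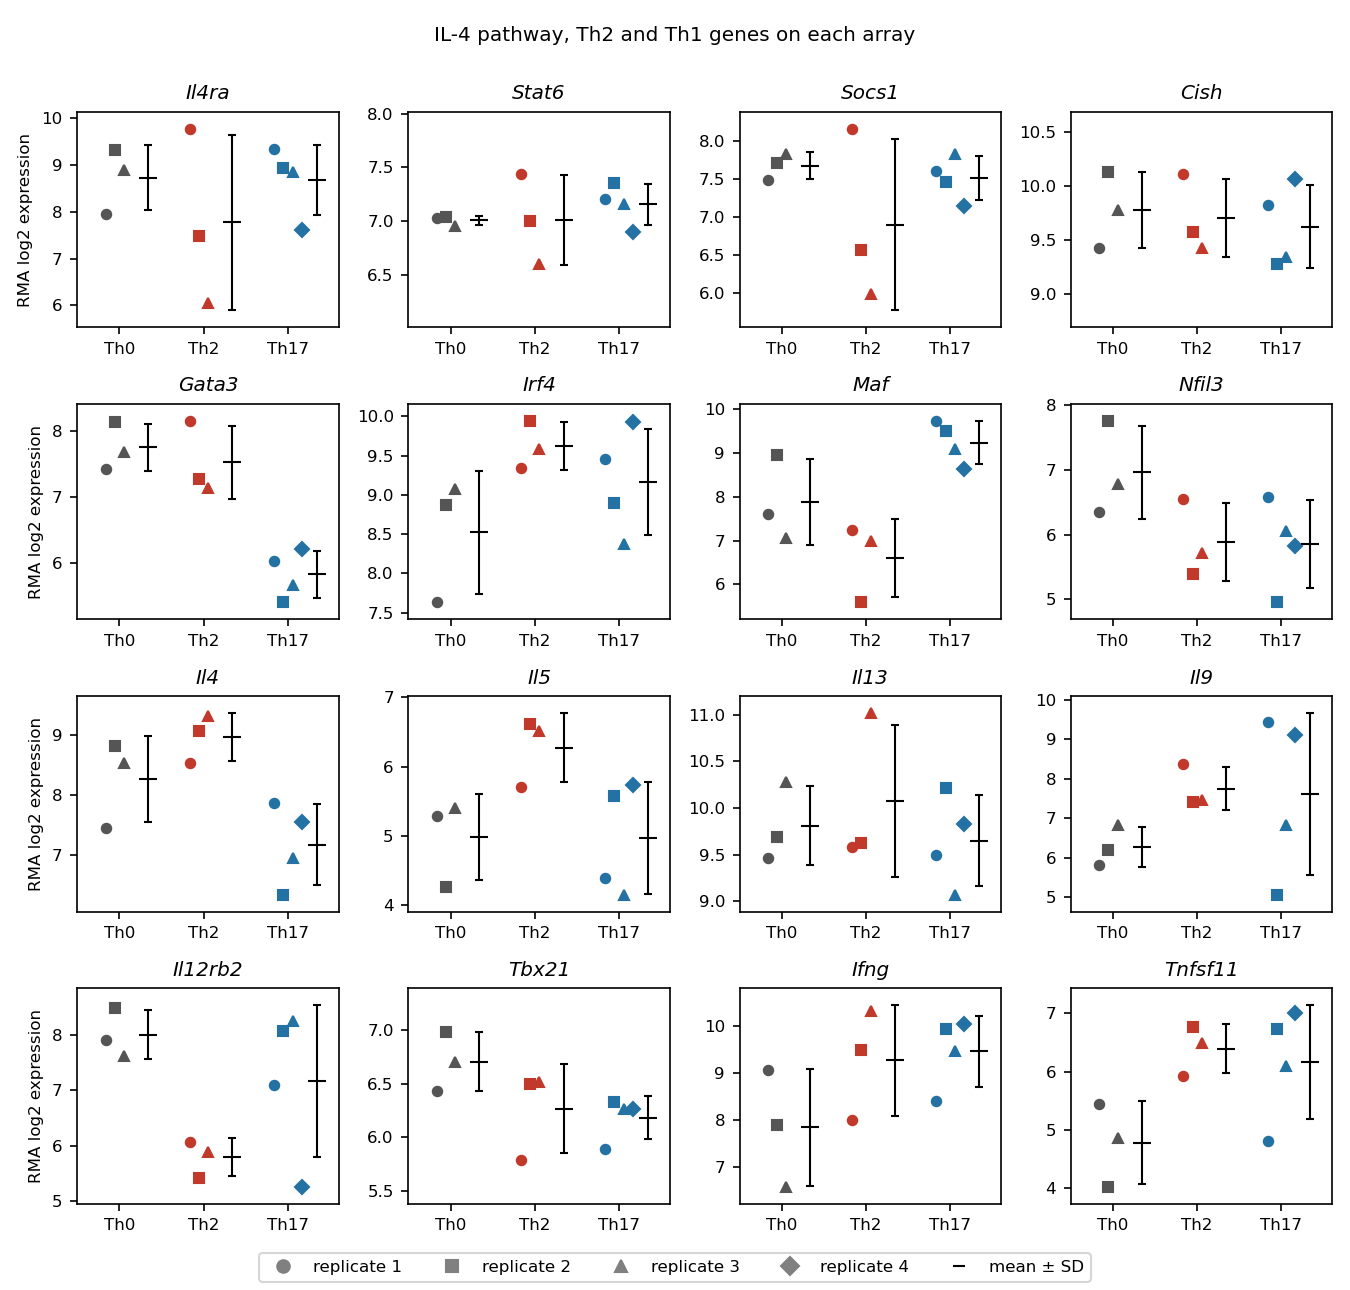
RMA log2 expression (vertical axes, a separate scale for each gene) of 16 genes on each of the 10 arrays, grouped as Th0, Th2 and Th17, with the marker shape giving the replicate and the bar the mean ± SD. Among the Th0 and Th2 arrays, Il4ra, Socs1 and Gata3 are highest on Th2 replicate 1 and lowest on Th2 replicates 2 and 3, while Irf4, Il5, Il9 and Tnfsf11 are higher and Il12rb2 lower on all 3 Th2 arrays than on all 3 Th0 arrays.

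Of the cytokines that Th2 cells secrete, 10 of 11 measured had a higher mean in Th2 than in Th0 cultures, with a median difference of 0.71 against -0.01 over all genes. By array the median shift was 0.10 on Th2 replicate 1, 1.15 on replicate 2 and 1.19 on replicate 3. None was called, and 2 of the 11 separated the groups (18.2%, against 8.43% of all genes).

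These were Il5 and Il9. Il5, the eosinophil growth factor, stood at 5.28, 4.26 and 5.40 in Th0 and at 5.70, 6.61 and 6.51 in Th2. Every Th2 array was above every Th0 array, and the difference was 1.3 ± 0.46 (2.46-fold, unadjusted p 0.017, limma adjusted p 0.767). Il9, a mast cell growth factor, stood at 5.81, 6.19 and 6.82 in Th0 and at 8.38, 7.42 and 7.46 in Th2. The highest of these was Th2 replicate 1. The difference was 1.48 ± 0.92 (2.79-fold). Its error is pooled over the 3 groups, and Il9 had an SD of 2.06 on the Th17 arrays (n = 4) against 0.51 in Th0 and 0.54 in Th2. On those Th17 arrays, whose cultures got no IL-4, Il9 averaged 7.61 and Il5 4.97, against 7.75 and 6.27 in Th2.

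Il4, whose product was also added to the Th2 cultures, stood at 7.45, 8.82 and 8.54 in Th0 and at 8.54, 9.07 and 9.32 in Th2. The lowest Th2 array lay among the Th0 arrays, and the difference was 0.71 ± 0.43 (adjusted p 0.819). Without Th0 replicate 1, the lowest array, it was 0.30. Il13, which acts on airway epithelium, stood at 9.46, 9.69 and 10.28 against 9.58, 9.62 and 11.02, a difference of 0.27 that rested on Th2 replicate 3 and was -0.21 without it. Il10, an anti-inflammatory cytokine, stood at 7.02, 7.94 and 6.88 against 7.69, 7.42 and 8.30, a difference of 0.52. Il24, of the IL-10 family, stood at 7.10, 8.05 and 7.56 against 7.67, 8.85 and 7.35, a difference of 0.38 that was -0.06 without Th2 replicate 2.

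The largest mean difference in the group belonged to Il3, a growth factor of basophils and mast cells, at 8.53, 8.48 and 4.91 in Th0 and 7.46, 10.97 and 9.94 in Th2. Its difference of 2.15 ± 1.09 came with overlapping groups, since Th2 replicate 1 lay inside the Th0 range. Il31 and Csf2 had the same arrangement, with Il31 at 3.38, 3.65 and 2.96 against 3.04, 6.02 and 4.82, and both were called higher without Th2 replicate 1. They are 18.2% of the 11 measured cytokines, against 1.94% of all genes. A second Csf2 probe set differed by 0.44 where the one used differed by 0.95. The exception in direction was Il6, at 7.49, 3.58 and 3.83 against 3.87, 3.66 and 4.01, where Th0 replicate 1 alone was high.

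The known IL-4 and STAT6 targets of T cells, taken as a list, did not stand on 1 side of the Th0 cultures. Of 39 measured members (42 in the list) 17 had a higher mean in Th2 and 22 a lower, 0 were called, and the median difference was -0.09. Only Irf4 and Tnfsf11 separated the groups, which is 5.13% of the list against 8.43% of all genes. Tnfsf11, which encodes RANKL, a TNF-family ligand, stood at 5.44, 4.02 and 4.86 in Th0 and at 5.93, 6.76 and 6.5 in Th2, a difference of 1.62 ± 0.52 (3.08-fold, unadjusted p 0.01, adjusted p 0.767). On the Th17 arrays, whose cultures got no IL-4, Irf4 averaged 9.16 and Tnfsf11 6.16, against 9.62 and 6.4 in Th2. Pim1, a kinase gene downstream of STAT factors, stood at 6.79, 8.31 and 7.46 against 8.15, 9.06 and 8.61. Only Th2 replicate 1 lay inside the Th0 range, and the difference was 1.09 ± 0.34 (unadjusted p 0.00839).

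By array, the median shift of the list from the Th0 mean was 0.26 on Th2 replicate 1, -0.11 on replicate 2 and -0.35 on replicate 3. Th2 replicate 1 lay above the Th0 range for 12 of the 39 genes and below it for 4, where 22.6% and 27.5% of all genes lay above and below. Th2 replicate 2 lay above for 11 and below for 13 (25.6% and 29.2% of all genes), and replicate 3 above for 11 and below for 16 (31% and 28.8% of all genes). For 5 targets Th2 replicate 1 was above and both other Th2 arrays below every Th0 array: Gata3, Il4ra, Socs1, Socs2 and Xbp1. Over all genes that arrangement held for 4.93%. The reverse arrangement held for 1 target, Bcl6, the repressor that drives the follicular helper programme, and for 3.23% of all genes. Epas1, a hypoxia-regulated factor, stood at 7.31, 8.18 and 6.12 in Th0 and at 7.66, 4.94 and 4.44 in Th2, a difference of -1.53 ± 0.75. With Socs1 and Asb2 it was among the 3 targets (7.69%, against 1.94% of all genes) that were called without Th2 replicate 1, all 3 of them lower. On Th2 replicate 1 alone, left as the sole Th2 array when the 3 arrays apart on the first component were taken out, the median difference of the list was 0.26.

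**Figure D2:**
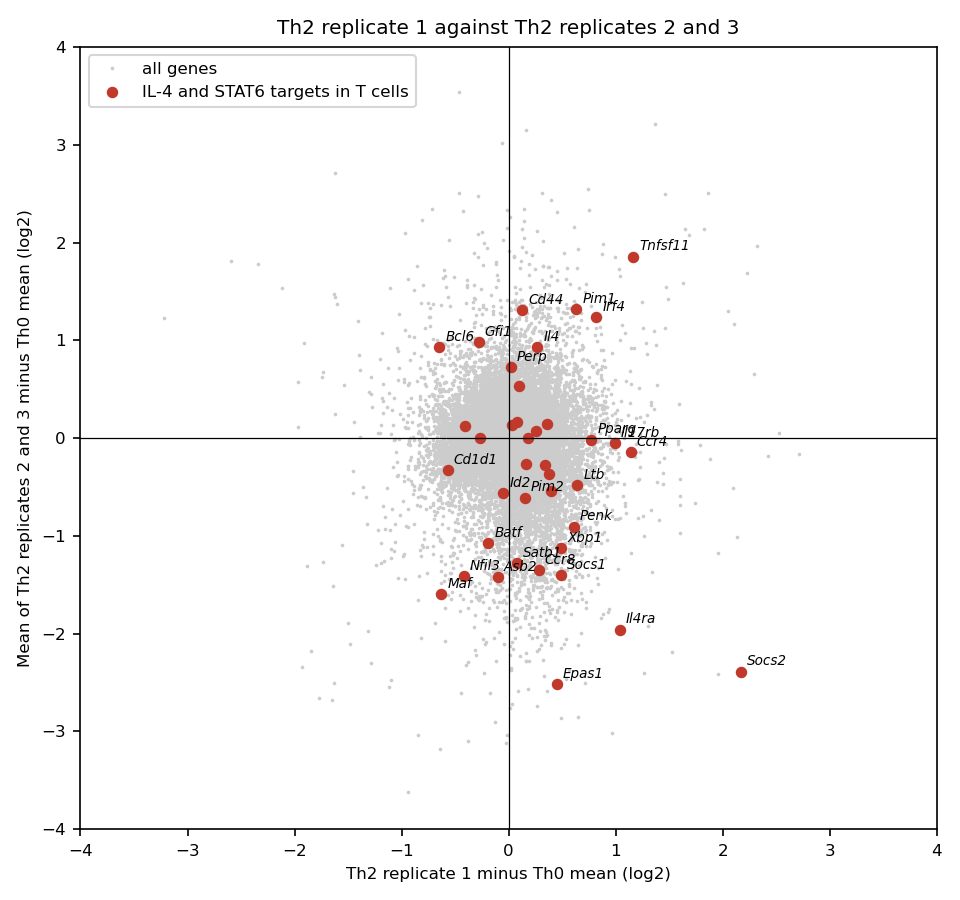
Difference from the Th0 mean (log2) on Th2 replicate 1 (horizontal) and in the mean of Th2 replicates 2 and 3 (vertical), for 39 IL-4 and STAT6 targets of T cells (red) and all genes (grey, with 1 gene outside the limits of 4). Tnfsf11, Irf4 and Pim1 lie at the upper right, while Socs2, Il4ra, Socs1 and Epas1 lie at the lower right, above the Th0 mean on replicate 1 and under it on the others.

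The median shift of Th2 surface receptors from the Th0 mean differed in sign between the Th2 arrays. Of 15 measured 8 had a higher mean and 7 a lower, and the median difference was 0.00. In all, 0 of the 15 separated the groups, against 8.43% of all genes. The median shift was 0.26 on Th2 replicate 1, where 7 of the 15 lay above the Th0 range (22.6% of all genes). It was -0.17 and -0.22 on the other Th2 arrays. There 5 lay below the Th0 range on each, where 29.2% and 28.8% of all genes did so. Ccr8, a chemokine receptor of Th2 and regulatory T cells, stood at 6.4, 7.91 and 7.90 in Th0 and at 7.69, 6.43 and 5.69 in Th2, a difference of -0.80 with overlapping arrays. Ccr4, a receptor for CCL17 and CCL22, stood at 5.37, 7.83 and 6.94 against 7.86, 6.77 and 6.36. Il17rb, part of the receptor for IL-25, stood at 3.17, 3.49 and 3.52 against 4.38, 3.49 and 3.18. Th2 replicate 1 was the highest array for both Ccr4 and Il17rb.

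IL-4 targets best known from B cells and macrophages were lower where they separated the groups. Of 19 measured 8 had a higher mean and 11 a lower, and 3 lay under the Th0 range on all Th2 arrays (15.8%, against 8.43% of all genes in either direction and 3.94% lower). H2-Ab1, a class II antigen presentation gene, stood at 6.59, 5.81 and 5.18 in Th0 and at 4.79, 4.98 and 4.43 in Th2. H2-Eb1, of the same complex, stood at 5.92, 5.40 and 4.98 against 4.42, 4.84 and 4.44. Tgm2, a transglutaminase, stood at 5.06, 5.98 and 6.01 against 4.49, 4.29 and 4.51. All Th2 values of these genes were under all Th0 values, by 0.55 or less at the nearest point.

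Summed B cell markers had log2 levels of 8.68, 9.98 and 8.0 on the Th0 arrays and 8.76, 7.47 and 7.56 on the Th2 arrays, and summed myeloid markers 9.29, 8.68 and 8.44 against 8.55, 8.15 and 8.10. The B cell list includes H2-Ab1 itself, so its sum is not independent of the class II values. The part of B cells and myeloid cells in the class II values was not tested. In bulk RNA, fewer cells of a type and less RNA per cell cannot be told apart.

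The widest separation of any gene between the groups was that of a Th1 gene with lower values in Th2 cultures. Il12rb2, the signalling chain of the IL-12 receptor, stood at 7.91, 8.48 and 7.61 in Th0 and at 6.07, 5.42 and 5.89 in Th2. The nearest Th2 and Th0 values were 1.54 log2 units apart, and Th2 replicate 1 lay with the other Th2 arrays. The difference was -2.21 ± 0.63 (95% interval -3.58 to -0.83), which is 4.61-fold lower in Th2, with an unadjusted p of 0.00475 and a limma adjusted p of 0.767. It ranged from -2.4 to -1.97 when each array was left out in turn. On the Th17 arrays Il12rb2 stood at 7.10, 8.06, 8.24 and 5.26, and Th2 was -1.37 from their mean (adjusted p 0.75).

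The Th1 programme as a whole, Il12rb2 included, had no common direction. Of 23 measured 11 had a higher mean in Th2 and 12 a lower, with a median difference of -0.24, and 1 separated the groups upward and 3 downward (17.4%, against 8.43% of all genes). Tbx21, which encodes T-bet, stood at 6.43, 6.98 and 6.70 in Th0 and at 5.79, 6.5 and 6.51 in Th2, a difference of -0.43 ± 0.23 with arrays that overlapped narrowly. Stat4, which carries the IL-12 signal, stood at 8.54, 9.23 and 7.86 against 7.96, 6.54 and 6.41, a difference of -1.58, and was called lower without Th2 replicate 1. Nkg7, a cytotoxic granule protein, stood at 9.55, 8.28 and 7.46 against 7.37, 7.43 and 7.30, and Il18rap, an IL-18 receptor chain, at 3.83, 4.34 and 3.79 against 3.35, 3.78 and 3.15. Both separated the groups narrowly.

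The cytokines Ifng and Tnf had higher means. Ifng stood at 9.07, 7.90 and 6.59 in Th0 and at 8.0, 9.50 and 10.31 in Th2, a difference of 1.41 ± 0.69 in which Th2 replicate 1 lay inside the Th0 range. Tnf stood at 8.05, 8.08 and 8.41 against 8.80, 10.35 and 10.35, above the Th0 range on all Th2 arrays, with a difference of 1.65 ± 0.36 (3.13-fold, unadjusted p 0.000764, limma adjusted p 0.767). It was called without Th2 replicate 1, at an adjusted p of 0.0111.

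Genes that IFNγ induces mostly had lower means. Of 29 measured 26 had a lower mean in Th2, none was called, and the median difference was -0.45, with median shifts of -0.14, -0.48 and -0.76 on Th2 replicates 1 to 3. Psmb9 and Psmb10, subunits of the immunoproteasome, were lower on every Th2 array. Psmb9 stood at 9.52, 9.48 and 9.63 in Th0 and at 9.19, 8.41 and 8.75 in Th2. Psmb10 stood at 9.05, 8.97 and 9.03 against 8.79, 6.91 and 6.31, a difference of -1.68 ± 0.59, so the Th0 arrays lay close together and the Th2 arrays spread below them. These 2 of 29 are 6.9% of the list against 8.43% of all genes. On the Th17 arrays, whose cultures got the same anti-IFNγ dose, Psmb9 averaged 8.91 and Psmb10 8.28, against 8.78 and 7.34 in Th2. The median difference of the list, Th2 minus Th17, was -0.23. Without Th2 replicate 1, 4 of the 29 were called (against 1.94% of all genes): Psmb8, Psmb10 and Socs1 lower and Cd274, which encodes the ligand PD-L1, higher.

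**Figure D3:**
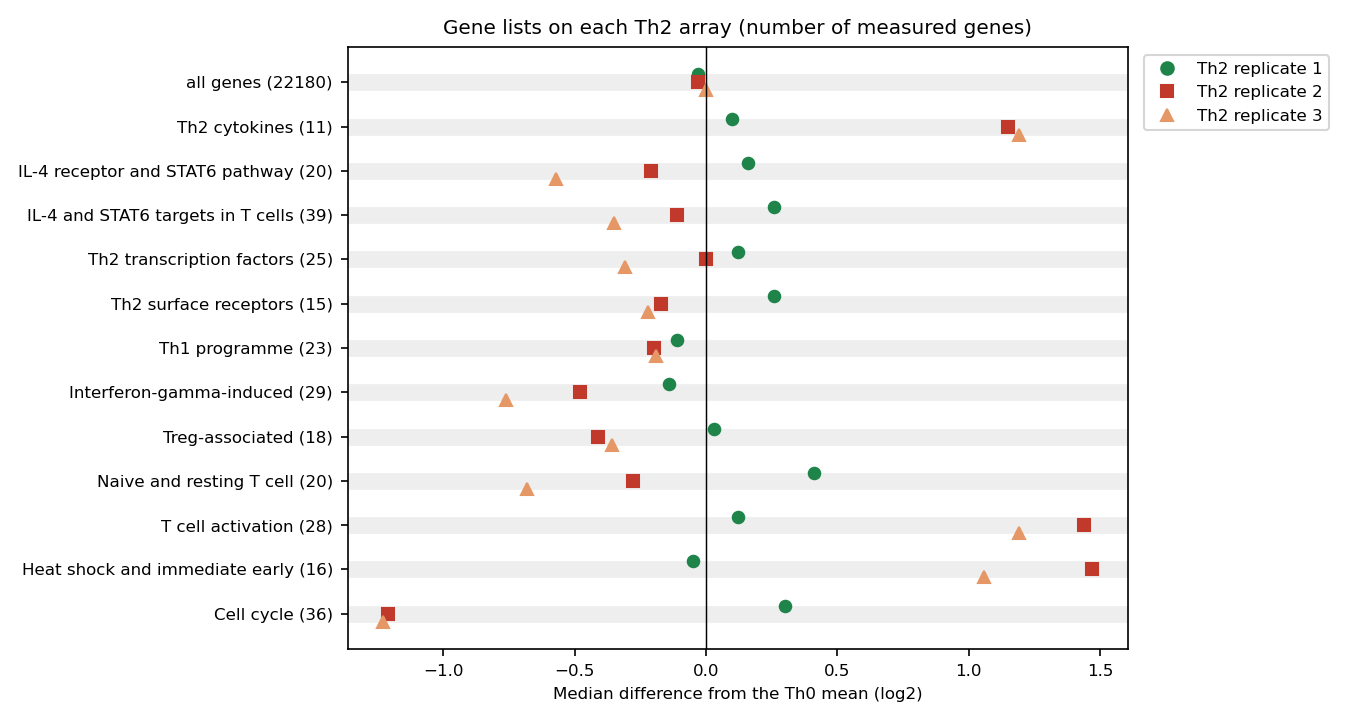
Median difference from the Th0 mean (log2, horizontal axis) of the measured genes of 12 of the 21 lists and of all genes, with 1 marker for each Th2 array and the number of genes in brackets. Th2 replicate 1 (circles) stays within 0.41 of zero in every list shown, while replicates 2 and 3 lie near 1.15 for Th2 cytokines and near -1.21 for cell cycle genes.

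The genes that separated all 3 Th2 arrays from all 3 Th0 arrays most widely were ranked by the distance between the nearest Th2 and Th0 values, which chose them, so their values are a description without a test. Unnamed gene models, small nucleolar, small nuclear, n-R and microRNA genes, antigen receptor segments and chemosensory receptors were left out of this ranking. The largest distance upward among all genes, 1.3, belonged to one of these, n-R5s136. Of the genes ranked, the 12th higher in Th2 was Mettl1 with a distance of 0.54 and the 13th Tnfsf11 with 0.49. The 12th lower was Plaat3 with -0.41 and the 13th Neb with -0.4.

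Upward, Mmp13, a collagenase, stood first of the ranked genes. It was at 3.75, 2.99 and 3.59 in Th0 and at 4.91, 6.54 and 5.35 in Th2. Mmp10, a related matrix metalloproteinase, stood at 4.13, 4.38 and 4.04 against 4.93, 6.69 and 6.34. For both, Th2 replicate 1 was the lowest Th2 array but still above the Th0 arrays. The Th17 arrays varied widely, with SDs of 2.03 for Mmp13 and 2.26 for Mmp10.

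The 12 included the small structural RNAs Rny3, Rny1 and Rpph1. Rny3, a Y RNA, stood at 6.10, 7.03 and 6.77 against 8.87, 8.46 and 8.18, with Th2 replicate 1 the highest. Its difference was 1.87 ± 0.33 (3.65-fold). Rny1, another Y RNA, stood at 2.71, 3.24 and 3.05 against 3.87, 5.22 and 4.74, and Rpph1, the RNA of ribonuclease P, at 6.74, 9.04 and 9.50 against 10.12, 10.25 and 10.75. On the Th17 arrays the 3 RNAs averaged 8.69, 4.63 and 10.00, nearer to the Th2 than to the Th0 means of each.

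Cd83, a surface marker of activated lymphocytes and dendritic cells, stood at 4.84, 5.14 and 5.00 in Th0 and at 6.02, 7.50 and 5.95 in Th2. The Th0 values were tight and the lowest Th2 value lay 0.81 above them, a mean difference of 1.5 ± 0.44 (2.83-fold). Tle4, a Groucho-family corepressor, stood at 5.03, 4.70 and 5.05 against 5.63, 6.03 and 5.69, and its Th17 mean of 4.92 was close to the Th0 mean of 4.93. Mettl1, a methyltransferase of transfer RNA, stood at 5.27, 5.20 and 5.28 against 5.82, 6.61 and 6.15.

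Serpina1e, Dpep2 and Ptp4a1 complete the group with low levels. Dpep2, a membrane dipeptidase, had little spread within groups, at 4.21, 4.25 and 4.20 in Th0 and 4.97, 5.04 and 4.97 in Th2. A second Dpep2 probe set showed a difference of 0 where the one used showed 0.77. Serpina1e, a serine protease inhibitor gene, stood at 3.97, 3.83 and 3.80 against 4.71, 4.99 and 5.03, and Ptp4a1, a phosphatase gene, at 3.26, 3.67 and 3.62 against 4.40, 4.62 and 4.22.

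Downward, Il12rb2 was followed by H2-Ea, a class II gene, at 7.68, 7.35 and 6.25 in Th0 and 5.44, 4.56 and 4.27 in Th2. All Th2 arrays were at least 0.81 under all Th0 arrays, and the difference was -2.34 ± 0.69 (5.05-fold lower). With H2-Ab1 and H2-Eb1, 3 class II genes were lower on every Th2 array, while H2-Aa, at 2.80, 3.52 and 2.82 against 2.74, 2.83 and 2.51, overlapped narrowly at the bottom of the scale.

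Ctsw, a cathepsin of cytotoxic lymphocytes, stood at 7.92, 8.17 and 7.0 in Th0 and at 6.58, 5.69 and 4.62 in Th2, a difference of -2.07 ± 0.43. On the Th17 arrays it stood at 9.92, 9.75, 9.80 and 9.49. The 3 groups did not overlap, with Th2 lowest and Th17 highest. Among 17 genes called between Th2 and Th17, Ctsw was lower in Th2 by a difference of -4.11 (limma adjusted p 0.00446), a contrast that uses the same Th2 arrays. Summed CD8 and NK cell markers, whose cells express Ctsw, had log2 levels of 8.54, 9.78 and 8.61 in Th0 and 8.44, 8.63 and 8.27 in Th2, and their part in the Ctsw values was not tested.

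Ndrg2, a gene of the NDRG family, stood at 5.17, 5.82 and 4.70 against 4.24, 4.04 and 4.01, and Selenbp1, a selenium-binding protein gene, at 6.31, 5.84 and 6.55 against 5.13, 5.39 and 5.20. Cbr4, a carbonyl reductase, stood at 6.22, 5.95 and 5.83 against 5.41, 4.40 and 4.8, and Plaat3, a phospholipase, at 6.18, 6.69 and 6.28 against 5.45, 5.18 and 5.78. Mlkl, the effector of necroptosis, stood at 3.91, 4.24 and 4.26 against 3.43, 3.05 and 3.26, near the low end of the scale. Sebox, Tcl1b1 and Tmem106a, which complete the 12, had Th0 means of 3.78, 4.16 and 3.91, also near that end.

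**Figure D4:**
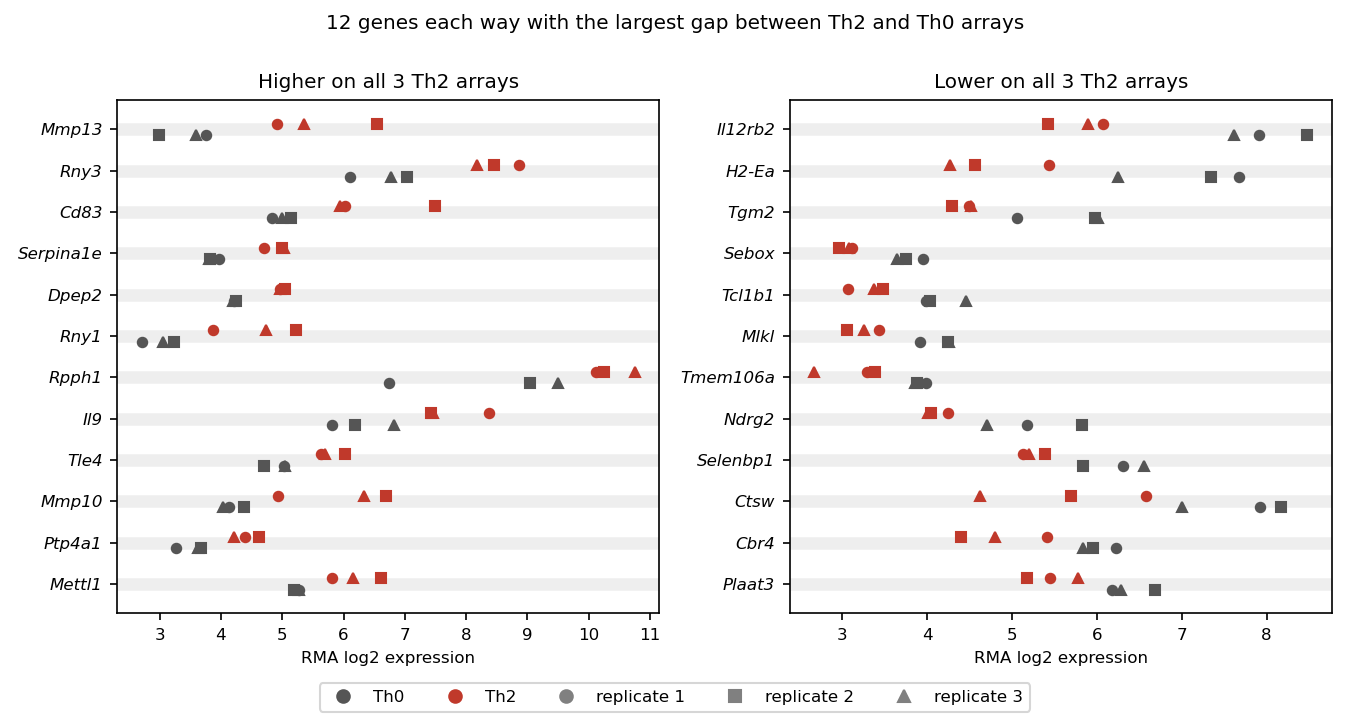
RMA log2 expression (horizontal axis) on each of the 3 Th0 (grey) and 3 Th2 (red) arrays, with the marker shape giving the replicate, for the 12 genes with the largest distance between groups in each direction. The red and grey markers of a gene do not overlap, because the genes were chosen for that, and Il12rb2 has the widest separation among the lower genes at 1.54.

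Activation genes and immediate early genes were higher on Th2 replicates 2 and 3, and cell cycle genes lower. T cell activation genes had a higher mean in Th2 for 23 of 28, with a median difference of 0.81 and median shifts of 0.12, 1.44 and 1.19 on Th2 replicates 1 to 3. Heat shock and immediate early genes had a higher mean for 15 of 16, with shifts of -0.05, 1.47 and 1.06. Egr1, an early response transcription factor, stood at 6.02, 6.14 and 5.71 in Th0 and at 6.41, 8.6 and 7.94 in Th2, and so separated the groups with Th2 replicate 1 only slightly above Th0. The chaperone gene Hspa1a stood at 3.05, 3.04 and 3.39 against 3.47, 5.87 and 4.49. Cd69, an early activation antigen, stood at 8.13, 7.70 and 7.49 against 7.53, 10.22 and 9.55, so that Th2 replicate 1 lay inside the Th0 range.

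Cell cycle genes had a lower mean in Th2 for 36 of 36, with a median difference of -0.74. Their median shift was 0.30 on Th2 replicate 1 and -1.21 and -1.23 on the other Th2 arrays, and 14 of the 36 were above the Th0 range on Th2 replicate 1 and below it on both others (4.93% of all genes). The list averaged 6.90, 7.42 and 7.46 on the Th0 arrays and 7.51, 5.98 and 6.01 on the Th2 arrays. On the Th17 arrays it averaged 7.09, 6.15, 6.76 and 6.33, and the median difference, Th2 minus Th17, was -0.10. Mki67, a proliferation marker, stood at 8.91, 9.18 and 9.19 in Th0 and at 9.29, 7.62 and 7.34 in Th2. Ccnb2, a mitotic cyclin, separated the groups narrowly, at 7.95, 7.83 and 8.01 against 7.80, 4.59 and 5.47.

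Without Th2 replicate 1 these lists held many of the genes called. In that fit 15 of 36 cell cycle genes were called lower (41.7%), 7 of 16 heat shock and immediate early genes higher (43.8%) and 8 of 28 activation genes higher (28.6%), against 1.94% of all genes. Of 18 genes associated with regulatory T cells 4 (22.2%) were called lower there, Foxp3, Ikzf2, Tnfrsf18 and Lrrc32. Foxp3, their lineage factor, stood at 8.25, 7.26 and 7.94 in Th0 and at 7.51, 5.93 and 6.06 in Th2, where Th2 replicate 1 again lay inside the Th0 range.

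Naive and resting T cell genes had median shifts of 0.41, -0.28 and -0.68 on Th2 replicates 1 to 3, and Th17 programme genes had a median difference of 0.07 from Th0 and -1.38 from the Th17 arrays. T cell identity genes were lower in the mean for 11 of 12, with a median difference of -0.40. Their summed log2 level was 12.82, 13.22 and 12.77 on the Th0 arrays and 13.10, 12.35 and 12.36 on the Th2 arrays, so Th2 replicates 2 and 3 were below the Th0 arrays in this measure too.

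Basophil and mast cell markers had a lower mean in Th2 for 16 of 16, with a median difference of -0.75 that was -0.09 without Th0 replicate 1. Their summed log2 level was 11.93, 9.09 and 8.80 on the Th0 arrays and 8.69, 7.74 and 8.20 on the Th2 arrays. Th0 replicate 1 also had the lowest Il4 and Irf4 values of the 6 arrays. The part of these markers in the differences between groups was not tested.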

How the data were processed

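Messenger RNA of 10 mouse T helper cultures was measured on 1 array each. The labels' protocols describe column isolation of RNA with DNase treatment, whole-transcriptome amplification and biotin labelling. The values analysed are log2 values that the authors deposited. The submitters' processing notes name RMA, in Affymetrix Expression Console 1.3.0.187, as their source. RMA corrects background, equalises the distributions of the arrays and combines the probes of a probe set. It therefore hides a change in total RNA and compresses differences between weakly expressed genes. The sources used here do not name the genome build or annotation version behind these values.

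Of 41345 probe sets, 23521 were paired with 1 gene symbol, 1814 with several and 16010 with none. All of the 23328 Entrez IDs matched in the RefSeq gene table kept their symbol. For each of 22180 genes the brightest probe set, by its mean on all arrays, was used, with no filter on low values.

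Group means were fitted to all 10 arrays with limma 3.58.1 (lmFit and eBayes, R 4.3.3), with 7 residual degrees of freedom, two-sided p-values and Benjamini-Hochberg adjustment over all genes. Genes with an adjusted p under 0.05 count as called. Folds are differences of mean log2 values on the linear scale, and ± after a difference is the moderated SE. Lists are described by counts and medians. The procedure was tested on simulated data, drawn independently for each gene and array. Such data lack differences shared by many genes of an array, like those of the Th2 arrays here, so the test does not cover them. The number of arrays limits the precision.

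Genes named are 20 IL-4, Th2 and Th1 genes whatever their values, the 12 each way with the largest distance between groups (leaving out unnamed models, microRNA, small nucleolar, small nuclear and n-R RNA genes, segments of antigen receptors, and genes of the olfactory and vomeronasal families), and up to 4 non-overlapping members of each list. Others were chosen after their values were seen. Members and lists were chosen with earlier results of these data known. Alternatives changed the arrays, block, filter, probe set rule, normalization, variance model, array weights and features tested.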

Additional observations from a re-analysis of the deposited data

Results flagged for a closer look

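Ctsw, a cathepsin of cytotoxic lymphocytes, stood apart because its Th2 and Th17 values moved to opposite sides of the Th0 arrays. It was lower than Th0 on all 3 Th2 arrays, with a difference of -2.07 (log2), and higher than every Th0 array on all 4 Th17 arrays. The opposite directions against the shared Th0 arrays were not tested as such. Between Th2 and Th17 the difference was -4.11, with a limma adjusted p of 0.00446. Groups of 3 arrays were not tested for single arrays that lie far from the others.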

How the results depend on the processing

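The count of 0 called genes held in every alternative but 3. It was 2 (Kcnma1 and Tanc2) without the 3 arrays apart on the first component, which leaves Th2 replicate 1 as a lone array assumed to vary like the other groups. Leaving out each array gave 0 to 431, with 1 (Car1) without Th0 replicate 2 and 431 without Th2 replicate 1. Genes separating the groups numbered 411 higher and 187 lower at a mean log2 of at least 5, 5011 and 6106 without the 3 arrays apart, and 2026 and 1650 without the 3 arrays highest in basophil markers. Leaving out each array gave 994 to 3013 higher and 875 to 3655 lower; fewer arrays in a group make separation easier. The median of the IL-4 and STAT6 targets was 0.26 without the 3 arrays apart and -0.27 to 0.09 leaving out each array. Without the arrays apart, differences turned in sign for Il4ra (1.04), Socs1 (0.49), Gata3 (0.40), Cish (0.34), Ccr8 (0.28), Bhlhe41 (0.16), Gfi1 (-0.28) and Il13 (-0.23); Il13 was -0.09 with array weights and Bhlhe41 0.01 without the arrays high in basophil markers. Leaving out each array turned Bhlhe41 (-0.27 to 0.01), Cish (-0.28 to 0.10), Il13 (-0.21 to 0.51) and Il24 (-0.06 to 0.69). The causes were not tested. Of 64 named genes the other 55 did not turn in any setting run, with Stat6 (0.00) at -0.21 to 0.21 leaving out each array. With the replicate number as a block 0 genes were called (smallest adjusted p 0.589, or 0.262 by the number in the sample descriptions, which is 4 for Th2 replicate 3). Deviations of same-numbered Th0 and Th2 arrays correlated at -0.29, -0.06 and -0.04 by the title numbers. By the description numbers Th2 replicate 3 had no Th0 partner. Th2 and Th17 arrays sharing a description number correlated at 0.3, -0.08 and 0.49, the last between Th2 replicate 3 and Th17 replicate 4. With so few arrays these values cannot decide whether the numbers pair samples.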
